A study of Mus musculus with 9 samples.

Results

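Glycogen synthesis and breakdown in skeletal muscle were followed through 9 genes, chosen by symbol: Gaa, Pygm, Phkg1, Phkb, Phka1, Gys1, Gbe1, Gyg and Stbd1. All 9 were found among the 13116 genes of the deposited table, and all 9 passed the filter on low values. Stbd1 encodes a glycogen-binding protein rather than an enzyme. The quadriceps of 9 male mice aged 18 months was sequenced, with 1 polyadenylated RNA library per mouse and 3 mice per group. KO_secGAA mice lacked Gaa and had received AAV8-sp7-delta8-hGAAco, a vector that expresses secGAA, a secretable acid alpha-glucosidase. KO_PBS mice lacked Gaa and had received PBS, and WT_PBS mice were wild type and had received PBS. Injections went into the tail vein when the mice were 9 months old, and muscle was collected 9 months later. The study's title places the vector's expression in the liver. The labels name neither the knockout allele nor the mouse strain, and they do not say which promoter drives the vector.

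Glycogen is a branched glucose polymer that muscle builds in the cytosol and takes apart by separate cytosolic and lysosomal routes. Glycogenin starts a chain, glycogen synthase lengthens it and the branching enzyme adds branch points. Glycogen phosphorylase, which phosphorylase kinase activates, releases glucose-1-phosphate in the cytosol, whereas acid alpha-glucosidase digests glycogen inside the lysosome. Loss of acid alpha-glucosidase causes Pompe disease, in which glycogen accumulates in lysosomes of muscle.

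In KO_PBS muscle, the phosphorylase gene Pygm and the phosphorylase kinase genes Phkg1 and Phkb fell to 0.519, 0.457 and 0.516 of the WT_PBS level. The branching enzyme gene Gbe1 was 2.87-fold higher and the glycogen-binding protein gene Stbd1 1.45-fold higher. In KO_secGAA muscle, Phkg1 and Phkb were higher than in KO_PBS muscle by 1.76-fold and 1.67-fold, while the Gaa difference between these groups was 0.04 on the log2 scale and did not pass the test. The sequences upstream of Pygm, Phkg1 and Gbe1 are shown because these genes stand for the transcripts that fell (phosphorylase and its kinase) and the synthesis transcript that rose. They come from RefSeq on the build GRCm38.p6, cover the 250 bases before the RefSeq start and are written 5′ to 3′ on the gene's strand. The Pygm window is chr19:6384158-6384407 on the plus strand, the Phkg1 window chr5:129879089-129879338 on the minus strand and the Gbe1 window chr16:70313699-70313948 on the plus strand. Capitals mark CAGCTG, an E-box, and CCAAT or its reverse complement ATTGG.
Pygm: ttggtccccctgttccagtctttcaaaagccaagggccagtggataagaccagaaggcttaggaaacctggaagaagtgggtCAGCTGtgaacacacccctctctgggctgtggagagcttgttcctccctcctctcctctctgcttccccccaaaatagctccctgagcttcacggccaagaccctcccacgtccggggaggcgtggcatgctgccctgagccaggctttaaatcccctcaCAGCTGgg
Phkg1: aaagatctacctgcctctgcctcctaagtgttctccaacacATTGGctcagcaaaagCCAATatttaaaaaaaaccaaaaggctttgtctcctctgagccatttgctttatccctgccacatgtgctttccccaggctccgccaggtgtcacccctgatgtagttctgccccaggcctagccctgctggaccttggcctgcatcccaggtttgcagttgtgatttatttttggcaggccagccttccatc
Gbe1: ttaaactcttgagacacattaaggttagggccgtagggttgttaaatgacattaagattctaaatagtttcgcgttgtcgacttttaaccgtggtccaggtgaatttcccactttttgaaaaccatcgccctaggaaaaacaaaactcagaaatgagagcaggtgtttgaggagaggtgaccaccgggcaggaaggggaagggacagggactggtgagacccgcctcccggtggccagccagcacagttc
The Pygm window holds CAGCTG at 168 and at 8 bases before the start, and the Phkg1 window holds CCAAT, on either strand, at 209 and 193 bases before it. The Gbe1 window holds neither of them, nor CACGTG or the MEF2 motif, which were searched on both strands as well. The window of Phkb, which also fell, holds none of these motifs, and neither do those of Gyg and Stbd1. The windows of Gys1 and Phka1, not called in KO_PBS against WT_PBS mice, each hold 1 CAGCTG. That of Gys1 also holds 4 CCAAT, and that of Gaa holds 1 CACGTG. Whether any motif bears on the changes was not tested. Among 32851 windows of the same length, 13% hold CAGCTG, 33.8% hold CCAAT, 6.02% hold CACGTG and 2.92% hold the MEF2 motif. The last 9 bases of the Pygm window lie in an exon that GENCODE M21 annotates for Pygm, and they include the nearer CAGCTG, so this copy is upstream of the RefSeq start only. Exons that GENCODE M21 annotates for the gene itself also cover 201 of the 250 bases of the Gyg window. They cover 76 bases of the Gaa window, 29 of the Phkb window and 10 of the Stbd1 window. The RefSeq start of Phkg1 lies inside the longer span that GENCODE M21 gives the gene.

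Values are normalized counts, in which reads per gene are scaled to an effective library size. Reads recovered for the genes of the deposited table summed to 9299156 to 15957106 per library, and 1 read was worth 0.0652 to 0.0922 normalized counts. The lowest read count of any of the 9 genes was 152. Correlations of log2 values between libraries were 0.9693 to 0.9857 within groups and 0.9364 to 0.9717 between groups. All 10 skeletal muscle markers were present, with summed levels of 150140 to 167910 normalized counts in KO_secGAA, 128840 to 146170 in KO_PBS and 169950 to 197080 in WT_PBS mice. None of 4 liver markers had a row among the deposited genes, so none was tested. In a bulk sample, fewer cells of a type and less RNA per cell cannot be told apart. Nothing in the labels links mice across groups. The limma p-values set a difference between groups against the spread between mice within groups. With 1 library per mouse, this spread includes that of library preparation.

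Gaa encodes acid alpha-glucosidase and lies on chromosome 11 at 119267887 to 119285454 in GRCm38 (GENCODE M21, as for all genes here). KO_secGAA mice had 15.07, 15.6 and 16.61 normalized counts of Gaa and KO_PBS mice had 17.78, 14.46 and 14.02, against 296.0, 128.6 and 264.1 in WT_PBS mice. Every knockout library lay below every wild-type library, and the 2 knockout groups overlapped. Relative to WT_PBS mice, Gaa fell by 3.77 log2 units in KO_PBS mice (SE 0.26, limma adjusted p = 3.1e-05), a 13.7-fold lower level, and the call was kept under all 19 alternatives. KO_secGAA and KO_PBS mice differed by 0.04 on the log2 scale, with a 95% interval of -0.54 to 0.62 and a limma adjusted p of 0.959. Reads of Gaa numbered 152 to 272 in the 6 knockout libraries and 1830 to 4318 in the WT_PBS libraries. Whether reads of the human transgene were counted as mouse Gaa was not tested.

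Stbd1, on chromosome 5 at 92603041 to 92606579, encodes starch-binding domain protein 1, which binds glycogen and has been linked to its transport to lysosomes. Its levels were 72.02, 94.63 and 89.68 normalized counts in KO_secGAA mice, 113.6, 89.8 and 111.4 in KO_PBS mice and 59.33, 79.08 and 78.36 in WT_PBS mice. KO_PBS mice all exceeded WT_PBS mice, and KO_secGAA mice overlapped both groups. Stbd1 was 1.45-fold higher in KO_PBS than in WT_PBS mice (log2 0.54, SE 0.15, limma adjusted p = 0.0281). Without KO_PBS 1, KO_PBS 3 or WT_PBS 1 it missed the threshold, with adjusted p of 0.0814, 0.0841 and 0.0759. KO_secGAA differed from KO_PBS by -0.30 on the log2 scale (limma adjusted p = 0.317) and from WT_PBS by 0.24 (limma adjusted p = 0.378).

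**Figure D1:**
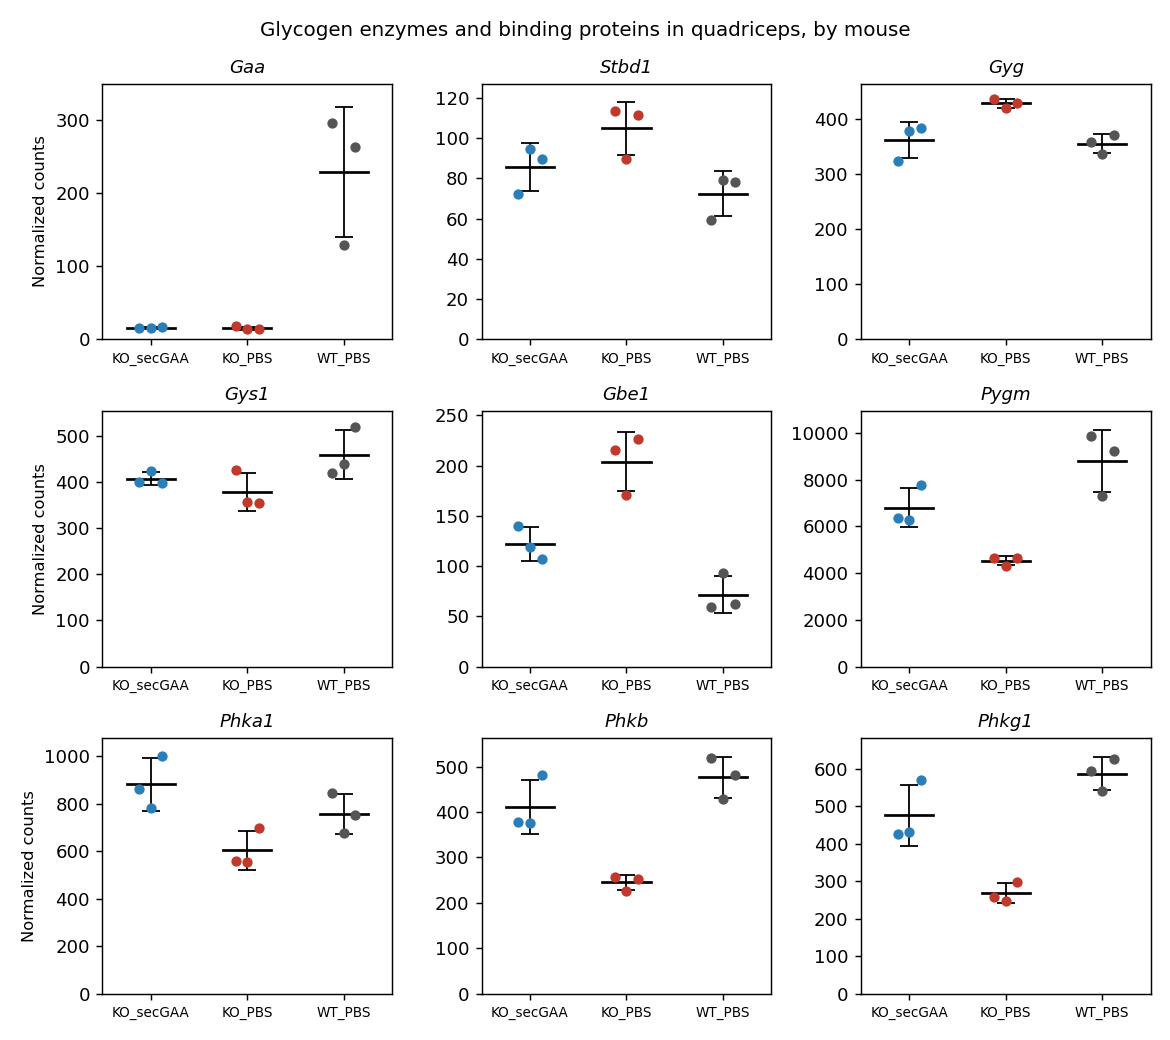
Normalized counts of the 9 genes in each mouse, 1 panel per gene, with KO_secGAA, KO_PBS and WT_PBS on the x axis, points for single mice and bars for the mean ± SD (n = 3). Gaa was at 14.02 to 17.78 in all 6 knockout mice and at 128.6 to 296.0 in WT_PBS mice, and Gbe1 was highest in KO_PBS mice.

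Of the 3 synthesis genes, Gbe1 changed and Gyg and Gys1 did not pass the test. Gbe1, the glycogen branching enzyme gene on chromosome 16 at 70313949 to 70569716, had 140.3, 119.1 and 107.1 normalized counts in KO_secGAA mice. It had 215.3, 170.6 and 226.2 in KO_PBS mice and 59.4, 92.99 and 62.44 in WT_PBS mice. The 3 groups did not overlap at all, with KO_PBS highest, KO_secGAA between and WT_PBS lowest. Gbe1 was 2.87-fold higher in KO_PBS than in WT_PBS mice (log2 1.52, SE 0.18, limma adjusted p = 0.000462). In KO_secGAA against KO_PBS mice it differed by -0.74 on the log2 scale (95% interval -1.14 to -0.33, limma adjusted p = 0.0552). The last difference passed with DESeq2 on recovered reads (adjusted p = 0.00366), without scaling factors (0.0248), with only the 2 groups fitted (0.0409), and without WT_PBS 1 (0.046) or WT_PBS 2 (0.026). KO_secGAA mice were 1.73-fold above WT_PBS mice (log2 0.79, limma adjusted p = 0.0432), which was lost under 10 of the 19 alternatives, where the adjusted p reached 0.159.

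Gyg encodes glycogenin, the self-glucosylating primer, and lies on chromosome 3 at 20122084 to 20155317. Its levels were 324.9, 379.3 and 384.7 normalized counts in KO_secGAA mice, 436.4, 420.0 and 430.5 in KO_PBS mice and 359.3, 336.9 and 372.2 in WT_PBS mice. All KO_PBS mice lay above both other groups, which overlapped each other. KO_PBS exceeded WT_PBS by 0.27 on the log2 scale (95% interval 0.07 to 0.46) and missed the threshold with a limma adjusted p of 0.0529. It passed with quantile normalization (adjusted p = 0.00642), without scaling factors (0.000566), with DESeq2 (0.037) and under 3 other alternatives. KO_secGAA against KO_PBS gave -0.24 (limma adjusted p = 0.164), and KO_secGAA against WT_PBS gave 0.02 (limma adjusted p = 0.904).

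Gys1, the muscle glycogen synthase gene on chromosome 7 at 45434844 to 45456619, had 398.9, 423.5 and 398.5 normalized counts in KO_secGAA mice, 424.7, 355.5 and 353.4 in KO_PBS mice and 419.9, 438.0 and 518.5 in WT_PBS mice. All 3 groups overlapped. The log2 difference was -0.28 between KO_PBS and WT_PBS (95% interval -0.52 to -0.04, limma adjusted p = 0.0903) and 0.11 between KO_secGAA and KO_PBS (interval -0.13 to 0.35, limma adjusted p = 0.622). Without scaling factors the first became 0.0373 and the second -0.0421. Without KO_PBS 1 the first passed, at -0.366 with an adjusted p of 0.0456. Of its exon bases, 6.473% are shared with Ruvbl2 on the opposite strand.

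Of the 4 cytosolic breakdown genes, Pygm, Phkg1 and Phkb fell in KO_PBS mice and Phka1 did not pass the test. Pygm encodes muscle glycogen phosphorylase, the enzyme that releases glucose-1-phosphate from glycogen, and lies on chromosome 19 at 6384399 to 6398459. It had 6375, 6258 and 7773 normalized counts in KO_secGAA mice, 4648, 4317 and 4628 in KO_PBS mice and 9872, 7297 and 9213 in WT_PBS mice. KO_PBS mice lay below all others, and KO_secGAA overlapped WT_PBS. Relative to WT_PBS mice, Pygm fell by 0.95 log2 units in KO_PBS mice (SE 0.16, limma adjusted p = 0.00261). This held under all 19 alternatives, and the size under quantile normalization was -0.476 (adjusted p = 0.0212). KO_secGAA mice were 0.58 above KO_PBS mice on the log2 scale (95% interval 0.23 to 0.93), and the limma adjusted p of 0.077 missed the threshold. It passed with edgeR (adjusted p = 0.0497), DESeq2 (0.00104), voom (0.0468) and a filter at 5 (0.0474). KO_secGAA against WT_PBS gave -0.37 (95% interval -0.71 to -0.02, limma adjusted p = 0.21).

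Phosphorylase kinase is built from catalytic gamma, regulatory alpha and beta, and calmodulin delta subunits. Phkg1, the muscle gamma subunit on chromosome 5 at 129863421 to 129898549, had 426.2, 431.0 and 568.4 normalized counts in KO_secGAA mice, 258.9, 247.7 and 297.5 in KO_PBS mice and 595.0, 540.6 and 625.3 in WT_PBS mice. KO_PBS mice were lowest without overlap, and the other groups overlapped. Relative to WT_PBS mice, Phkg1 fell by 1.13 log2 units in KO_PBS mice (SE 0.13, limma adjusted p = 0.000337). It was 1.76-fold higher in KO_secGAA than in KO_PBS mice (log2 0.82, limma adjusted p = 0.00921), and both changes held under all 19 alternatives. KO_secGAA against WT_PBS gave -0.31 (limma adjusted p = 0.187). Of its exon bases, 9.679% are shared with Sumf2 on the opposite strand.

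Phkb, the beta subunit gene on chromosome 8 at 85840959 to 86061376, followed the same order, with 377.1, 375.4 and 480.3 normalized counts in KO_secGAA mice, 256.7, 226.0 and 252.6 in KO_PBS mice and 518.8, 428.5 and 480.5 in WT_PBS mice. KO_PBS mice were again below every mouse of the other groups. It fell by 0.95 log2 units in KO_PBS mice relative to WT_PBS mice (SE 0.12, limma adjusted p = 0.000587). It was 1.67-fold higher in KO_secGAA than in KO_PBS mice (log2 0.74, limma adjusted p = 0.0107), a change that without KO_PBS 2 had an adjusted p of 0.0508. KO_secGAA against WT_PBS gave -0.22 (limma adjusted p = 0.319).

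Phka1, the muscle alpha subunit gene on chromosome X at 102513975 to 102644246, had 860.6, 783.6 and 1002 normalized counts in KO_secGAA mice, 557.9, 555.0 and 697.3 in KO_PBS mice and 843.8, 675.8 and 751.3 in WT_PBS mice. KO_PBS and WT_PBS overlapped, and KO_secGAA lay above KO_PBS. The log2 difference was -0.33 in KO_PBS against WT_PBS (95% interval -0.63 to -0.03, limma adjusted p = 0.107) and 0.55 in KO_secGAA against KO_PBS (interval 0.25 to 0.84, limma adjusted p = 0.0539). The second passed with DESeq2 (adjusted p = 0.00424), a filter at 5 (0.047) and without WT_PBS 1 (0.0445).

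**Figure D2:**
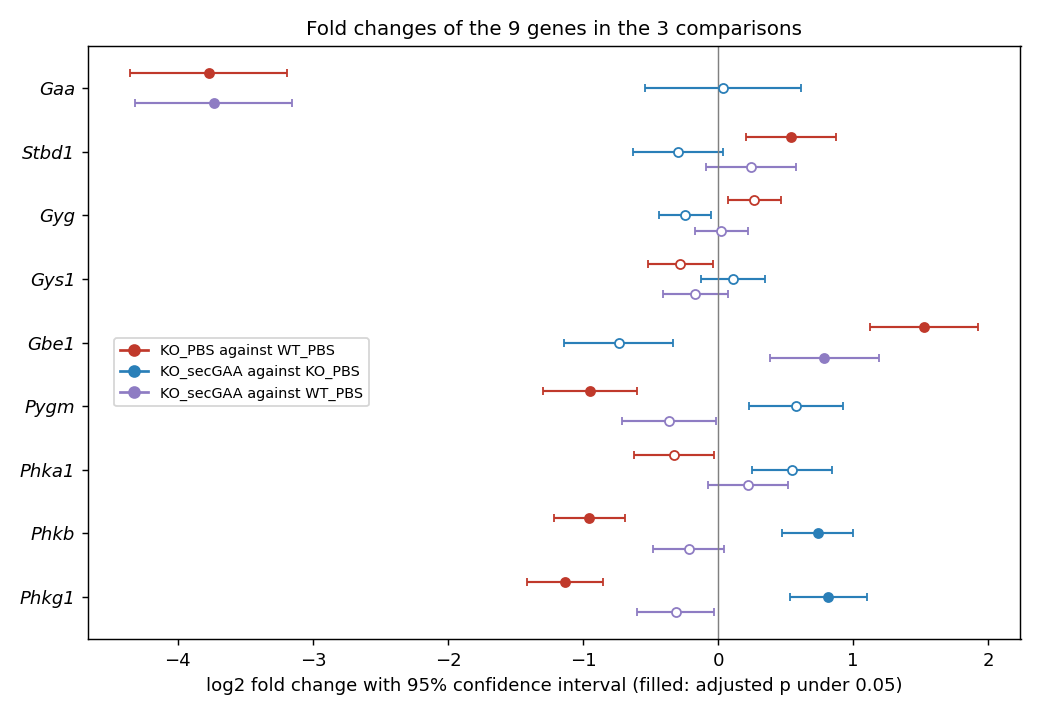
Log2 fold changes of the 9 genes (x axis) with 95% intervals for the 3 comparisons, from limma on log2(normalized count + 0.5), filled where the adjusted p was under 0.05. Phkg1 and Phkb lie below 0 in KO_PBS against WT_PBS (-1.13 and -0.95) and above 0 in KO_secGAA against KO_PBS (0.82 and 0.74).

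Of the 9 genes, 2 rose and 4 fell in KO_PBS against WT_PBS mice, where 21.9% of 13089 genes tested were called, 10.9% higher and 11% lower. The groups did not overlap for 7 of the 9, against 39.7% of all genes (20.7% higher and 19% lower). Gaa, which the knockout mice lacked by design, is among the 4 that fell and among these 7. The median log2 fold change was -0.33, with 0.01 over all genes. In KO_secGAA against KO_PBS mice, 2 rose and none fell, where 3.67% of all genes were called, 1.37% higher and 2.31% lower. Groups did not overlap for 6 of the 9, against 24% of all genes (11.7% higher and 12.3% lower), and the median was 0.11, with 0.00 over all genes. In KO_secGAA against WT_PBS mice, 1 rose (Gbe1) and 1 fell (Gaa), where 3.72% were called, 1.83% higher and 1.89% lower. Groups did not overlap for these 2, against 26.9% of all genes (13.5% higher and 13.3% lower). Among the 9, 3 rose and 4 fell in KO_PBS against WT_PBS mice both without scaling factors and with quantile normalization. In KO_secGAA against KO_PBS mice, 2 rose and 2 fell without scaling factors, and 2 rose and 1 fell with quantile normalization. The 3 comparisons share libraries, so their values are not independent of each other. The 9 genes were chosen with earlier results of these data known, so their counts cannot be read as a test of the set.

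Levels were compared between genes per kb of annotated exons, which counts all exons of a gene and can understate a gene whose longest exons are little used. In WT_PBS mice Pygm led with 2733 ± 415.6 normalized counts per kb (SD, n = 3), followed by Gyg with 151.9 ± 7.633 and Phka1 with 120.9 ± 13.44. Gys1 (95.8 ± 10.96) overlapped Phka1 above it and Phkg1 (90.17 ± 6.595) below it. Gaa (48 ± 18.58) overlapped Phkb (64.17 ± 6.11) and Stbd1 (32.53 ± 5.042), and Gbe1 was lowest at 13.38 ± 3.471. In KO_PBS mice Pygm stood at 1408 ± 57.65 per kb, and Stbd1 (47.24 ± 5.922) ranked above Phkg1 (41.18 ± 4.01), Gbe1 (38.13 ± 5.501) and Phkb (33.05 ± 2.246), neighbours in this order overlapping each other. Gaa was last at 3.224 ± 0.4294. In KO_secGAA mice Pygm stood at 2114 ± 262 per kb, Gyg (154.9 ± 14.12) overlapped Phka1 (140.9 ± 17.67), and Gys1 (84.98 ± 2.991) overlapped Phkg1 (73.01 ± 12.41). Gbe1 (22.83 ± 3.14) was above only Gaa (3.295 ± 0.1638).

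Ratios within a library are not changed by a factor that scales the whole library, whereas quantile normalization can change them. The Gbe1 to Gys1 ratio per kb was 0.3147, 0.2517 and 0.2406 in KO_secGAA mice, 0.4537, 0.4295 and 0.5728 in KO_PBS mice and 0.1266, 0.19 and 0.1078 in WT_PBS mice, with no overlap among groups. The Pygm to Gys1 ratio was 23.79, 21.99 and 29.03 in KO_secGAA mice, 16.29, 18.07 and 19.49 in KO_PBS mice and 34.99, 24.8 and 26.44 in WT_PBS mice. KO_PBS mice were lowest without overlap, and KO_secGAA overlapped WT_PBS. Phkg1 made up 97.27 ± 0.935% of the summed Phkg1 and Phkg2 level per kb in KO_secGAA mice, 94.75 ± 0.1% in KO_PBS mice and 97.76 ± 0.422% in WT_PBS mice (SD, n = 3 each). No test was run on these ratios.

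**Figure D3:**
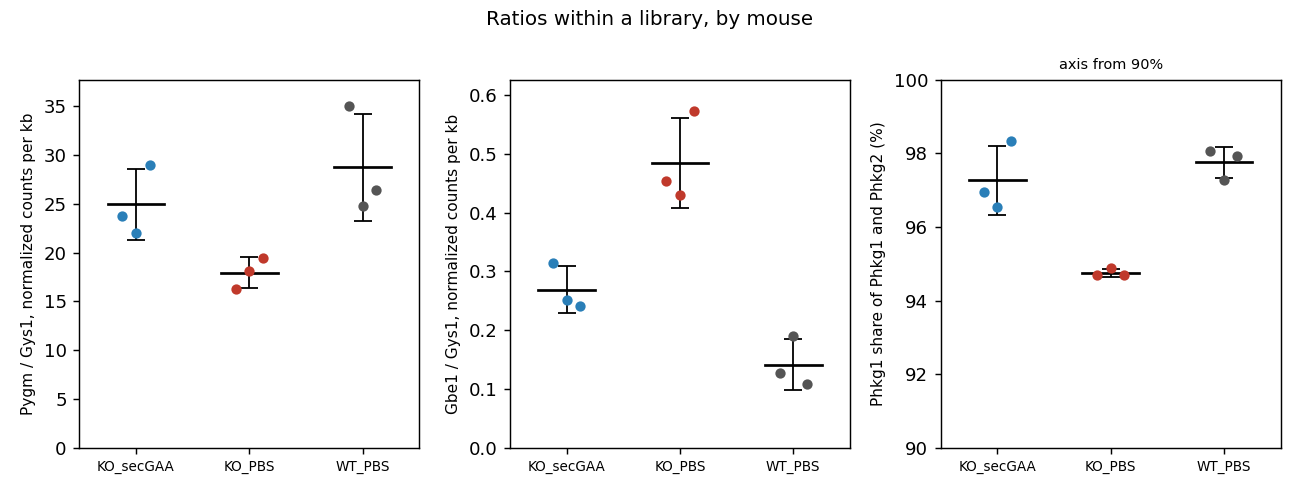
Ratios of glycogen genes within each library, per kb of exons, for KO_secGAA, KO_PBS and WT_PBS mice, with points for single mice and bars for the mean ± SD (n = 3); the axis of the Phkg1 share starts at 90%. The Gbe1 to Gys1 ratio was 0.4295 to 0.5728 in KO_PBS mice and 0.1078 to 0.19 in WT_PBS mice.

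The wider glycogen pathway was described with 45 listed genes, the 9 included, of which 44 were tested. In KO_PBS against WT_PBS mice 7 rose and 14 fell (47.7%, against 21.9% of all genes), with a median log2 fold change of -0.25. The 35 genes outside the 9 gave 5 risen and 10 fallen. In KO_secGAA against KO_PBS mice 6 of the 44 rose and 5 fell (25%, against 3.67% of all genes). In KO_secGAA against WT_PBS mice 4 rose and 2 fell (13.6%, against 3.72% of all genes). Gaa, which the knockout mice lacked by design, is among the fallen genes of both comparisons with WT_PBS mice. The listed genes were chosen with earlier results of these data known, so these shares cannot be read as a test of the list.

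Calmodulin is the delta subunit of phosphorylase kinase. Calm3 had 325.5, 291.3 and 393.5 normalized counts in KO_secGAA mice, 177.3, 202.2 and 219.3 in KO_PBS mice and 544.2, 458.1 and 538.2 in WT_PBS mice, with no overlap among groups. It fell by 1.36 log2 units in KO_PBS mice relative to WT_PBS mice (limma adjusted p = 0.000122) and was 0.75 higher in KO_secGAA than in KO_PBS mice (limma adjusted p = 0.0156). The second change had an adjusted p of 0.0541 without KO_PBS 2. Calm3 also differed by -0.61 in KO_secGAA against WT_PBS mice (limma adjusted p = 0.0335), a call lost under 8 alternatives, and Calm2 was not called. Epm2a, which encodes laforin, a phosphatase that acts on glycogen, fell by 0.51 in KO_PBS against WT_PBS mice (limma adjusted p = 0.00504) and missed the threshold without scaling factors (adjusted p = 0.102).

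Slc37a4 encodes the glucose-6-phosphate transporter of the endoplasmic reticulum. It had 117.6, 99.09 and 129.2 normalized counts in KO_secGAA mice, 48.11, 48.66 and 73.41 in KO_PBS mice and 167.4, 172 and 176.6 in WT_PBS mice, with no overlap among groups. It fell by 1.62 log2 units in KO_PBS mice relative to WT_PBS mice (limma adjusted p = 0.00016) and was 1.04 higher in KO_secGAA than in KO_PBS mice (limma adjusted p = 0.00911). Hk1, a hexokinase gene, went the other way, with 12.12, 10.8 and 9.765 normalized counts in KO_secGAA mice, 21.82, 21.71 and 24.13 in KO_PBS mice and 7.918, 6.218 and 6.995 in WT_PBS mice. It was 1.62 higher on the log2 scale in KO_PBS than in WT_PBS mice (limma adjusted p = 5.17e-05) and differed by -1.02 in KO_secGAA against KO_PBS mice (limma adjusted p = 0.00427). In KO_secGAA against WT_PBS mice Hk1 was 0.60 higher (limma adjusted p = 0.0342), a call lost under 7 alternatives. Hk2, the other hexokinase listed, was not called.

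Pgm5, a phosphoglucomutase family gene known for its place at muscle attachment sites, was 2.14 higher on the log2 scale in KO_PBS than in WT_PBS mice (limma adjusted p = 4.25e-05). It was -1.04 in KO_secGAA against KO_PBS mice (limma adjusted p = 0.0092) and 1.10 in KO_secGAA against WT_PBS mice (limma adjusted p = 0.00849). Pgm2, as the table names the gene on chromosome 4, fell by 0.80 in KO_PBS against WT_PBS mice (limma adjusted p = 0.00345). Gys2, the liver glycogen synthase gene, was at 1.91 to 2.811 normalized counts in KO_secGAA mice, 4.925 to 5.708 in KO_PBS mice and 1.581 to 2.228 in WT_PBS mice. It was 1.32 higher on the log2 scale in KO_PBS than in WT_PBS mice (limma adjusted p = 0.00138), from a low level, and differed by -0.99 in KO_secGAA against KO_PBS mice (limma adjusted p = 0.0267), a call lost under 5 leave-one-out alternatives. Pgm2l1, which encodes glucose-1,6-bisphosphate synthase, fell by 0.70 in KO_PBS against WT_PBS mice (limma adjusted p = 0.0064). Ppp1r3d, a targeting subunit of protein phosphatase 1, was 1.40 higher on the log2 scale in KO_secGAA than in WT_PBS mice (limma adjusted p = 0.043), a call lost under 8 alternatives. Ppp1r3c, which encodes the phosphatase-targeting protein PTG, fell by 1.96 in KO_PBS against WT_PBS mice (limma adjusted p = 0.0338) although the groups overlapped, and was lost under 4 leave-one-out alternatives.

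Subunits of AMPK, a kinase of glycogen synthase, moved in both directions. Prkag2 was 1.32 higher on the log2 scale in KO_PBS than in WT_PBS mice (limma adjusted p = 8.36e-05) and Prkaa1 was 0.87 higher (limma adjusted p = 0.00112). Prkab2 fell by 1.07 (limma adjusted p = 0.00144) and Prkag3 fell by 0.96 (limma adjusted p = 0.0293). The mean of Prkaa1 was 26.76 normalized counts in KO_PBS and 14.48 in WT_PBS mice. Prkaa2, with higher means of 125.9 and 158.7 in these groups, differed by -0.33 and was not called (limma adjusted p = 0.0624). In KO_secGAA against KO_PBS mice, Prkag2 differed by -0.87 (limma adjusted p = 0.00497), Prkaa1 by -0.68 (limma adjusted p = 0.0184) and Prkab2 by 0.77 (limma adjusted p = 0.0325). The Prkaa1 and Prkab2 calls in that comparison were lost under leave-one-out alternatives, and that of Prkab2 also under both other scalings, with adjusted p of up to 0.0777 for Prkaa1 and 0.105 for Prkab2. The Prkag3 call was lost without scaling factors and under 5 leave-one-out alternatives. The pathway genes called in no comparison had log2 fold changes between -1.13 (Pygl, the liver phosphorylase gene) and 0.51 (Ppp1r3e) in KO_PBS against WT_PBS mice, and between -0.67 (Ppp1r3e) and 0.55 (Phka1) in KO_secGAA against KO_PBS mice.

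**Figure D4:**
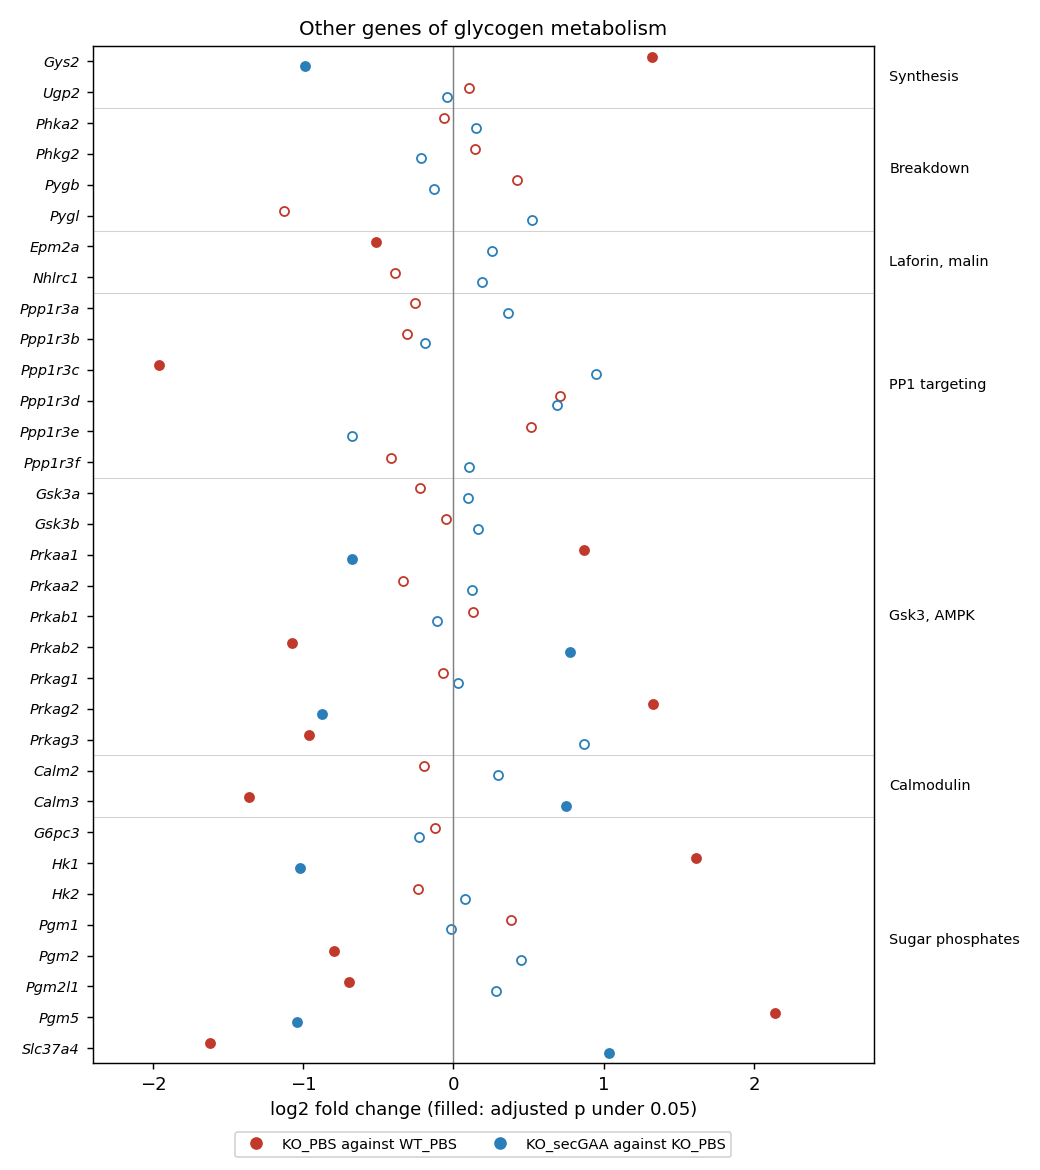
Log2 fold changes (x axis) of 33 pathway genes outside the 9, by group of genes, in KO_PBS against WT_PBS and KO_secGAA against KO_PBS mice, from limma on log2(normalized count + 0.5), filled where the adjusted p was under 0.05. Of the genes shown, 5 rose and 8 fell in KO_PBS against WT_PBS mice, and 3 rose and 5 fell in KO_secGAA against KO_PBS mice.

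Some markers of fibre types and of other cells were called between the groups as well. Over all genes tested, 21.9% were called in KO_PBS against WT_PBS mice, 10.9% higher and 11% lower. This share was 3.67% in KO_secGAA against KO_PBS mice and 3.72% in KO_secGAA against WT_PBS mice. None of 6 adipocyte, 5 erythroid and 4 Schwann markers was called in KO_PBS against WT_PBS mice. The marker counts were not tested against these shares. Of 12 fast-fibre markers, 8 fell and none rose in KO_PBS against WT_PBS mice, with a median log2 fold change of -0.61, but 2 fell without scaling factors and 1 fell with quantile normalization, where the median was 0.01. Their summed levels were 146850 to 166190 normalized counts in KO_secGAA, 115900 to 124740 in KO_PBS and 152790 to 196820 in WT_PBS mice. Of 9 slow-fibre markers, 7 rose in KO_PBS against WT_PBS mice under all 3 scalings, with sums of 320.34 to 1122.4 in KO_secGAA, 620.62 to 2614.1 in KO_PBS and 75.168 to 533.52 in WT_PBS mice. Of 12 macrophage markers, 3 rose in KO_PBS against WT_PBS mice, and 9 without scaling factors, with sums of 147.8 to 307.44 in KO_secGAA, 254.95 to 373.29 in KO_PBS and 105.26 to 175.93 in WT_PBS mice. Endothelial markers fell in 3 of 6 cases in KO_PBS against WT_PBS mice, and in none without scaling factors. Of 6 satellite cell and regeneration markers, Myh3 and Myog rose, of 7 fibroblast markers Lum rose, and of 4 smooth muscle markers Rgs5 fell. Among the 10 skeletal muscle markers, Ckm, Tnnt3 and Ttn fell and Des rose, and none fell under the other scalings. In KO_secGAA against KO_PBS mice, the fibroblast markers Lum and Col1a2 and the macrophage marker Cd68 fell, while the fast-fibre marker Casq1 and the adipocyte marker Lep rose, and no slow-fibre, endothelial or satellite cell marker was called. Casq1 was not called under the other scalings. In KO_secGAA against WT_PBS mice the macrophage markers Cd68 and Mpeg1 rose, and no other listed marker was called. The median log2 fold change of the slow-fibre markers in this comparison was 2.22, although none was called and their sums overlapped between these groups. Without scaling factors, 1 slow-fibre, 1 adipocyte and 1 satellite cell and regeneration marker rose as well. No listed marker with a row in the table had 0 reads in any library. The part of fibre type and of these other cells in the changes of the 9 genes was not tested.

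The genes whose log2 values across the 9 libraries were most like each changed gene were ranked by Pearson's r over 8902 candidates. These values describe 9 libraries in 3 groups, and differences between groups carry much of them. Pygm was closest to Pgm2, Fbxl5 and Morn4 (r = 0.99 each). Ppp3cb and Gpd1 were among the genes closest to Phkg1 (r = 0.99 each), and Phkb was closest to Cdc42bpg (r = 0.99), Atl2 and Bpgm (r = 0.98 each). Gbe1 was closest to Evc2 (r = 0.98), Pgm5 and Msn (r = 0.97 each), and Gaa to Clu, Tdrp and Tfeb (r = 0.98 each). Stbd1 was closest to Rn7s1 and Rn7s2 (r = 0.97 each), near-identical copies whose reads cannot be told apart, and to Myog (r = 0.96).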

How the data were processed

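Quadriceps RNA from 9 mice was sequenced as single-end reads of 61 bp, per the labels' protocols. The authors deposited 1 table of normalized counts, a normalized signal, for 13116 genes. CASAVA, cutadapt, RSEM, limma and edgeR, and the build GRCm38, are listed by the submitters' processing notes. Their versions and roles, and whether counting used strand, are not given in those notes. Each deposited signal value was an odd multiple of its column's minimum for 100% of 118044 values (relative tolerance 1e-06), so whole reads were recovered as (reads + 0.5) divided by an effective library size, per 1000000. edgeR's count test on these reads called 2841 genes in KO_PBS against WT_PBS, 445 in KO_secGAA against KO_PBS and 503 in KO_secGAA against WT_PBS.

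limma 3.58.1 in R 4.3.3 was fitted to log2(value + 0.5) for all 9 libraries, with group means, a trend and 6 residual df. The filter kept genes reaching 1 in 3 or more libraries (13089 tested, 27 removed), with Benjamini-Hochberg adjustment over all of them. Rose, fell and called mean an adjusted p under 0.05. Folds are on the log2(value + 0.5) scale and understate changes of low genes. The 19 alternatives changed the pseudocount, filter, scaling, tool (edgeR 4.0.16, DESeq2 1.42.0, voom), groups fitted, or left out a library. The script was tested on simulated data. Members, pathway genes and markers were chosen with earlier results of these data known; genes named are all 9 members, called pathway genes and, per changed member, the 3 most like genes with a mean of at least 5. Of 83 identifiers without a symbol, none was used by name. Promoters matched for all 9 members. Some genes that the rule selects are counted but not reported by name here.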

Additional observations from a re-analysis of the deposited data

How the results depend on the processing

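Over the 9 glycogen genes, the falls of Gaa, Pygm, Phkg1 and Phkb and the rise of Gbe1 in KO_PBS against WT_PBS mice, and the rise of Phkg1 in KO_secGAA against KO_PBS mice, kept their direction and call under all 19 alternatives. Without scaling factors the median of all genes moved on the log2 scale to 0.31 for KO_PBS against WT_PBS, -0.14 for KO_secGAA against KO_PBS and 0.16 for KO_secGAA against WT_PBS. Called genes then numbered 4984, 959 and 1007 in those comparisons, and the share called higher was 89.6%, 10.6% and 86.2%, against 49.9%, 37.2% and 49.1%. Pathway genes risen in KO_PBS against WT_PBS then numbered 12, and fallen 8 in KO_secGAA against KO_PBS and 1 in KO_secGAA against WT_PBS. Without scaling factors the sign also turned for Gys1 (0.0373 in KO_PBS against WT_PBS, -0.0421 in KO_secGAA against KO_PBS), Gaa (-0.112 in KO_secGAA against KO_PBS) and Prkag3 (0.0684 in KO_secGAA against WT_PBS). With quantile normalization 1 pathway gene fell in KO_secGAA against WT_PBS. DESeq2 called 798 genes in KO_secGAA against KO_PBS and 1022 in KO_secGAA against WT_PBS, with 10 pathway genes risen in the first and 4 fallen in the second. With voom 1 pathway gene rose in KO_secGAA against WT_PBS. With only the 2 groups fitted, 316 genes were called in KO_secGAA against KO_PBS, and 2 pathway genes rose in KO_secGAA against WT_PBS. Leaving out 1 library gave 1744 to 2847 called genes in KO_PBS against WT_PBS (lowest without WT_PBS 3), 159 to 568 in KO_secGAA against KO_PBS (lowest without KO_secGAA 2) and 94 to 503 in KO_secGAA against WT_PBS (lowest without WT_PBS 3). Pathway genes risen and fallen then numbered 6 to 8 and 11 to 16, 2 to 7 and 3 to 6, and 1 to 3 and 1 to 4 in the same comparisons. Leaving out 1 library also turned the sign of differences near 0: Gaa in KO_secGAA against KO_PBS ranged from -0.0253 to 0.141, Gyg in KO_secGAA against WT_PBS from -0.0193 to 0.102, and Prkag3 in KO_secGAA against WT_PBS from -0.195 to 0.103. The cause of these changes was not tested. No paired analysis was possible because the labels give no numbers that link mice across groups.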
